A study of Mus musculus with 24 samples.

Results

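The proteasome genes of mouse spleen monocytes were examined: every row of the deposited expression table whose gene symbol begins with Psma, Psmb, Psmc, Psmd, Psme, Psmf or Psmg followed by a digit. This rule took 45 of the 23930 rows, without using any measured value. The 45 rows cover 6 alpha-ring subunits of the 20S core, 4 structural and 2 constitutive catalytic beta subunits, the 3 catalytic subunits of the immunoproteasome, the thymoproteasome subunit Psmb11, 6 ATPases and 11 non-ATPases of the 19S cap, 3 assembly chaperones of the 19S cap and 3 of the 20S core, 4 activators, the inhibitor Psmf1 and Psmc3ip. Psmc3ip, a recombination factor, carries the prefix and is no proteasome subunit. Psmb5, Psma3, Psma5, Psme2 and Psmg3 were not analysed here, so the constitutive catalytic subunits are described by Psmb6 and Psmb7 alone.

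The measurements came from 24 libraries in 6 groups of 4, one for each pairing of a monocyte subset with a genotype. All mice were on the C57BL/6 background and none had been treated. WT mice carried both genes and had been purchased, so they were not littermates of the mutants. Slc29a3-/- mice lacked the lysosomal nucleoside transporter SLC29A3 (ENT3), through a stop codon placed in the gene by CRISPR/Cas9. Slc29a3-/- Tlr7-/- mice also carried a CRISPR/Cas9 deletion in Tlr7, the lysosomal receptor for nucleosides and single-stranded RNA. Their ages were not given in the sources used here. Cells negative for NK1.1, Ly6G and Siglec-F and positive for CD11b were sorted from spleen as Ly6C hi (Fcgr4 low) or Ly6C low (Fcgr4 high). The labels do not say whether the 4 libraries of a group came from separate animals, so P values measure only the spread between these libraries.

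The proteasome is the barrel-shaped protease that degrades ubiquitin-tagged proteins. Its 20S core holds 2 catalytic beta rings between 2 alpha rings, and the 19S cap recognises, unfolds and feeds in the substrate. In cells exposed to interferon, and constitutively in many leukocytes, the catalytic subunits encoded by Psmb6, Psmb5 and Psmb7 are replaced by those encoded by Psmb9, Psmb8 and Psmb10. The resulting immunoproteasome favours peptides that fit MHC class I molecules. PA28, encoded by Psme1 and Psme2, is an interferon-inducible ring that caps the core in place of 19S.

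The start regions of the paired catalytic genes are shown because the interferon-inducible and the constitutive members are set against each other throughout. Each runs 5′ to 3′ on the gene's own strand, from 250 bases before to 50 bases after the RefSeq start (GRCm38.p6), and capitals mark a motif match. The letters searched, on both strands, were the ISRE of interferon-stimulated genes (GAAA, 2 further bases, GAAA) and TGACNNNGC (the NFE2-type antioxidant element). Both motifs were counted separately where matches overlapped.
Psmb8, chr17:34197945-34198244 (+): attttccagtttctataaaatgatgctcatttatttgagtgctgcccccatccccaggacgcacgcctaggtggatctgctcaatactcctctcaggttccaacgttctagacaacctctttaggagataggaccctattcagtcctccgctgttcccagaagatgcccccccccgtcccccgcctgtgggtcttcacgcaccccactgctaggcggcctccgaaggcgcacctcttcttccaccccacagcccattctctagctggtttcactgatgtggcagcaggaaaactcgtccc
Psmb9, chr17:34187281-34187580 (-): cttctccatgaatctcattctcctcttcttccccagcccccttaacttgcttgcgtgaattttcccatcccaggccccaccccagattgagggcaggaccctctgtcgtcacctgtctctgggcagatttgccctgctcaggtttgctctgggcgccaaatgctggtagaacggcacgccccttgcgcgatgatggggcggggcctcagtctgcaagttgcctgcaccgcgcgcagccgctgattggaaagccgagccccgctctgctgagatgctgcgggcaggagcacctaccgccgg
Psmb10, chr8:105938343-105938642 (-): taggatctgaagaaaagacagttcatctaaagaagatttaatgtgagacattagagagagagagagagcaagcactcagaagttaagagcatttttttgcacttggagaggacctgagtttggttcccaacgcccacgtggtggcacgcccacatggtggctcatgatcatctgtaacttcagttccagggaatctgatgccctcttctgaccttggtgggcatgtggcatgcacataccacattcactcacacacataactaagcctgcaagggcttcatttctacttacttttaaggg
Psmb6, chr11:70525107-70525406 (+): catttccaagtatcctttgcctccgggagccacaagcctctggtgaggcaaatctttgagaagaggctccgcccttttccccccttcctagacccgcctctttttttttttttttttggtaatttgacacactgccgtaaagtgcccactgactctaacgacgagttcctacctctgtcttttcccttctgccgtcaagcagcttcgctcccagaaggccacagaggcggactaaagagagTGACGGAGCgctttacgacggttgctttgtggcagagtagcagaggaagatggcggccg
The window of Psmb6 holds TGACGGAGC, beginning 9 bases before the start. The windows of Psmb8, Psmb9 and Psmb10 hold neither motif, and no window was given for Psmb7. Those of Psmb8 and Psmb9 lie within the gene extents given below, so bases upstream of these extents were not searched. Windows of this length were matched for 37 of the 45 member genes. The ISRE letters were found in 5 of the 37 (Psmb3, Psmd4, Psmd9, Psme1 and Psmg4) and in 3.44% of all 32851 windows, and the antioxidant letters in 5 (Psmb6, Psmc6, Psmd9, Psmd12 and Psme4) and in 12.4%. A match is only a run of letters and was not tied to binding.

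Psmb8 and Psmb9 lie close together in the MHC class II region of chromosome 17 (mm10, GENCODE vM21). Psmb8 spans 34197721 to 34201454 on the plus strand and Psmb9 spans 34181987 to 34187764 on the minus strand. Psmb10 lies on chromosome 8 at 105935735 to 105938444, minus strand. Each gene was read through a single amplicon. Levels are reads per 1000000 (RPM) and are compared between libraries, not between genes. A difference is called when limma's moderated test on log2(RPM + 1) gives a Benjamini-Hochberg adjusted P under 0.05 over all genes tested, and every fold change below is on that log2 scale. In bulk samples, fewer cells of a type and less RNA per cell cannot be told apart.

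The libraries held between 12311037 and 14572266 reads, as inferred from the smallest step of the RPM values, so 3 reads are worth 0.206 to 0.244 RPM. Genes of Ly6C hi monocytes were called higher in the Ly6C hi libraries for 5 of 5 listed genes in each genotype, and 6, 7 and 6 of 7 genes of Ly6C low monocytes were called lower there in WT, Slc29a3-/- and Slc29a3-/- Tlr7-/-. Slc29a3 and Tlr7 reads persisted in the mutants (Slc29a3 127 to 173 RPM in Slc29a3-/- Ly6C hi libraries, Tlr7 259 to 345 RPM in Slc29a3-/- Tlr7-/- Ly6C hi libraries), so these amplicons do not check the edits. WT replicate 4 stood apart from WT replicates 1 to 3 in both subsets. Its distance from them over all genes was at least 63.7 in Ly6C hi and 67.4 in Ly6C low cells. Among those 3 it was at most 24.3 and 44.4. WT replicates 1 to 3 carried barcodes 11 to 16 and held 14237380 to 14572266 reads. All other libraries, WT replicate 4 among them, carried barcodes 24 to 46 and held 12311037 to 13048399 reads. These differences of barcode and depth run with the comparisons of the mutants with WT, and their part was not tested. With replicate 4 as the sole WT library, which is then assumed to vary like the other groups, 0 proteasome genes were called in any comparison with WT or between the WT subsets, and 1.22% and 0.256% of all genes were called higher and lower between Slc29a3-/- and WT Ly6C hi cells. The SE of Psmc2 there rose from 0.13 to 0.22. Psmc2, Psmd14, Psma6 and Psmb9 differed by 0.37, 0.50, 0.24 and 0.58. The first 3 were smaller than with all WT libraries, and that of Psmb9 was larger. With 1 WT library, the loss of calls cannot be split between the wider SE and the changed sizes.

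The family was expressed at a similar total in all 6 groups. The summed level of the 45 rows was 6123 ± 276 RPM (SD, n = 4) in WT, 5978 ± 352 in Slc29a3-/- and 6470 ± 264 in Slc29a3-/- Tlr7-/- Ly6C hi cells, and 5564 ± 473, 5766 ± 163 and 5742 ± 278 in the Ly6C low cells. Psmd12, a lid subunit, had the least variable group means among members, its highest being 1.13 times its lowest, followed by the ATPase Psmc5 at 1.18. Among members above 1 RPM in every group, Psmg1, a 20S assembly chaperone, varied most (2.38), and Psma4 (2.20), Psmc6 (2.16), Psmd13 (2.09) and Psmb9 (2.07) came next. Psmb11, whose product belongs to cortical thymic epithelium, did not exceed 0.639 RPM in any library. Psma8, a testis-type alpha subunit, stayed at or under 2.36 RPM and Psmc3ip at or under 1.74 RPM. These 3 genes were left out of the Ly6C low tests, and Psmb11 of all tests, leaving 44 members tested in the Ly6C hi and in the 24-library fits and 42 in the Ly6C low fit.

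The immunoproteasome subunits differed by genotype among Ly6C hi monocytes. Psmb9 (β1i) was read at 55.2, 49.8, 56.3 and 50.1 RPM (WT), 72.7, 87.5, 82.5 and 61.1 RPM (Slc29a3-/-) and 89.8, 116, 97.1 and 111 RPM (Slc29a3-/- Tlr7-/-). The 3 genotypes did not overlap, WT being the lowest and Slc29a3-/- Tlr7-/- the highest. Psmb10 (β2i) stood at 96.5, 93.7, 104 and 112 RPM (WT), 117, 138, 137 and 68.7 RPM (Slc29a3-/-) and 143, 183, 169.6 and 176 RPM (Slc29a3-/- Tlr7-/-). The Slc29a3-/- Tlr7-/- libraries were all above both other genotypes, while Slc29a3-/- ran from below to above WT. Psmb8 (β5i) was at 501, 471, 541 and 478 RPM (WT), 455, 522, 424 and 385 RPM (Slc29a3-/-) and 586, 707, 539 and 617 RPM (Slc29a3-/- Tlr7-/-). Here too the Slc29a3-/- Tlr7-/- libraries were above every Slc29a3-/- library, but Slc29a3-/- Tlr7-/- replicate 3 was just under the highest WT library.

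All 3 immunoproteasome genes were called lower in Slc29a3-/- than in Slc29a3-/- Tlr7-/- Ly6C hi cells, and they were the only members called in that comparison at the deposited scaling (0 higher, 3 lower of 44). Over all 10561 genes tested, 10% were called higher and 10.3% lower, so 3 of 44 is below the share of all genes. The log2 difference was -0.46 ± 0.13 (SE; adjusted P = 0.021) for Psmb8, -0.45 ± 0.14 (SE; adjusted P = 0.034) for Psmb9 and -0.59 ± 0.19 (SE; adjusted P = 0.041) for Psmb10, with groups that did not overlap for any of them (11.5% of all genes did so in this direction). The median over the 44 members was -0.04, and over all genes tested -0.12. These calls depended on the scaling: after TMM scaling, which moved the median of all genes to -0.02, Psmb8, Psmb9 and Psmb10 differed by -0.35, -0.34 and -0.48 with adjusted P of 0.068, 0.087 and 0.062, and the calls were instead Psme3 (0.45) and Psma6 (0.42), both higher. They also rested on single libraries. Without Slc29a3-/- replicate 4, the library with the lowest Psmb8 and Psmb10, 0 members were called and Psmb10 differed by -0.36 (adjusted P = 0.081, limma), and without Slc29a3-/- Tlr7-/- replicate 3 or 4 Psmb8 alone was called. Psmb8 was also lost without Slc29a3-/- replicate 3 (adjusted P = 0.054, limma), and Psmb9 and Psmb10 without Slc29a3-/- replicate 1 (0.074 and 0.062) or Slc29a3-/- Tlr7-/- replicate 2 (0.07 and 0.076).

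**Figure D1:**
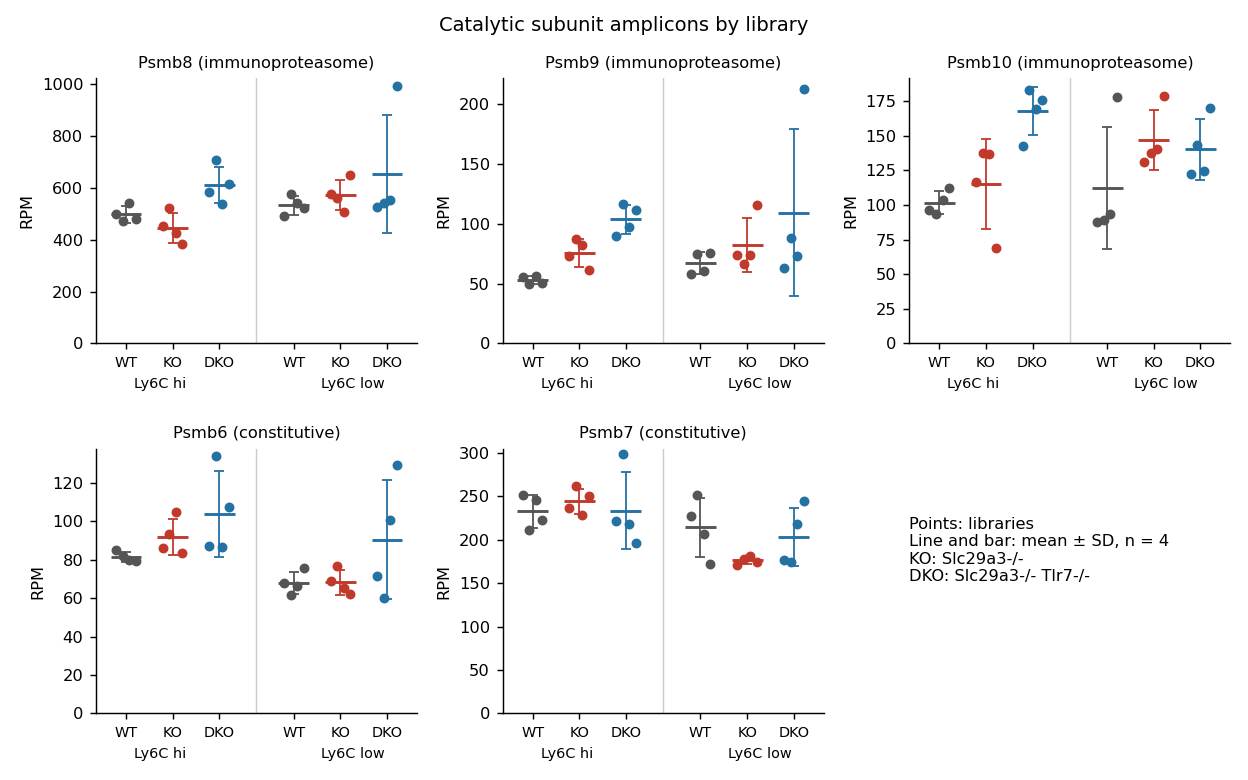
Level (RPM) of each immunoproteasome and constitutive catalytic subunit in the 24 libraries, by subset and genotype; points are libraries and bars the mean and SD of 4. Psmb9 in Ly6C hi cells steps from 52.9 in WT to 75.9 in Slc29a3-/- and 104 RPM in Slc29a3-/- Tlr7-/- libraries, and single libraries reach 213 (Psmb9) and 993 RPM (Psmb8) among the Ly6C low libraries.

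Against WT, Psmb9 was called higher in Ly6C hi cells of both mutants, by 0.50 ± 0.14 (SE; adjusted P = 0.015) in Slc29a3-/- and by 0.95 ± 0.14 (SE; adjusted P = 0.032) in Slc29a3-/- Tlr7-/- cells. Both comparisons share their WT libraries. In Slc29a3-/- Tlr7-/- cells it was the single member called (1 higher, 0 lower of 44), where 0.312% of all genes were called higher and 1.15% lower. Psmb10 differed there by 0.72 ± 0.19 (SE; adjusted P = 0.065), with no overlap, and passed the test after TMM scaling (0.75, adjusted P = 0.045, limma), as it did without WT replicate 4 or Slc29a3-/- Tlr7-/- replicate 1. Psmb8 differed by 0.29 ± 0.13 (SE; adjusted P = 0.19). In Slc29a3-/- cells neither Psmb8 (-0.16 ± 0.13, adjusted P = 0.36) nor Psmb10 (0.13 ± 0.19, adjusted P = 0.64) was called. The Slc29a3-/- Tlr7-/- call of Psmb9 was lost without any one of WT replicates 1, 2 and 3 (adjusted P = 0.14, 0.17 and 0.12, limma) or Slc29a3-/- Tlr7-/- replicates 2, 3 and 4 (0.075, 0.053 and 0.068), with a log2 difference of 0.90 to 1.02 throughout. The Slc29a3-/- call was lost only without WT replicate 2 (adjusted P = 0.05, limma).

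The constitutive catalytic subunits Psmb6 and Psmb7 were not called between genotypes in either subset. In Ly6C hi cells Psmb6 (β1) was at 81.6 ± 2.61 RPM (WT), 92 ± 9.54 (Slc29a3-/-) and 104 ± 22.5 RPM (Slc29a3-/- Tlr7-/-) and Psmb7 (β2) at 232 ± 19.2 RPM (WT), 244 ± 14.7 (Slc29a3-/-) and 233 ± 44.7 RPM (Slc29a3-/- Tlr7-/-) (SD, n = 4). In Ly6C low cells they were at 67.8 ± 5.8 RPM (WT), 68.2 ± 6.28 (Slc29a3-/-) and 90.4 ± 31.1 RPM (Slc29a3-/- Tlr7-/-) and 214 ± 34 RPM (WT), 176 ± 4.58 (Slc29a3-/-) and 203 ± 33.8 RPM (Slc29a3-/- Tlr7-/-). In Slc29a3-/- against Slc29a3-/- Tlr7-/- Ly6C hi cells the log2 difference was -0.15 ± 0.15 (SE; adjusted P = 0.49) for Psmb6 and 0.08 ± 0.13 (SE; adjusted P = 0.71) for Psmb7. Some of their differences were as large as uncalled ones of the immunoproteasome genes: Psmb6 was above WT without overlap in Slc29a3-/- Tlr7-/- Ly6C hi cells, by 0.32 ± 0.15 (SE; adjusted P = 0.21). Whether the changes of the immunoproteasome and constitutive genes differ was not tested.

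To set the immunoproteasome against the constitutive subunits within a library, an index was taken as the mean log2(RPM + 1) of Psmb8, Psmb9 and Psmb10 minus that of Psmb6 and Psmb7. It hardly depends on how libraries are scaled. In Ly6C hi cells it was 0.01 ± 0.07 (SD, n = 4) in WT, 0.05 ± 0.24 in Slc29a3-/- and 0.51 ± 0.15 in Slc29a3-/- Tlr7-/- libraries. The 4 Slc29a3-/- Tlr7-/- libraries (0.30 to 0.66) were all above the WT (-0.07 to 0.07) and Slc29a3-/- libraries (-0.29 to 0.24), and Slc29a3-/- replicate 4 was the lowest of all. In Ly6C low cells the index was 0.38 ± 0.26, 0.78 ± 0.28 and 0.62 ± 0.33, with overlap between every pair of genotypes. The Ly6C hi index was below the Ly6C low index without overlap in WT (difference -0.37) and in Slc29a3-/- cells (-0.73), but overlapped it in Slc29a3-/- Tlr7-/- cells (-0.11). Psmb8 has no partner in the index, and the pairs taken singly did not all follow it. Psmb9 minus Psmb6 was higher in Slc29a3-/- than in WT Ly6C hi libraries without overlap (difference 0.34; 0.04 with overlap for the index), and overlapped between Slc29a3-/- and Slc29a3-/- Tlr7-/- (-0.30). Psmb10 minus Psmb7 was lower in Slc29a3-/- than in Slc29a3-/- Tlr7-/- Ly6C hi libraries without overlap (-0.67), and overlapped between the WT subsets (-0.20). The index and both pair differences are given as descriptions, without a test.

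**Figure D2:**
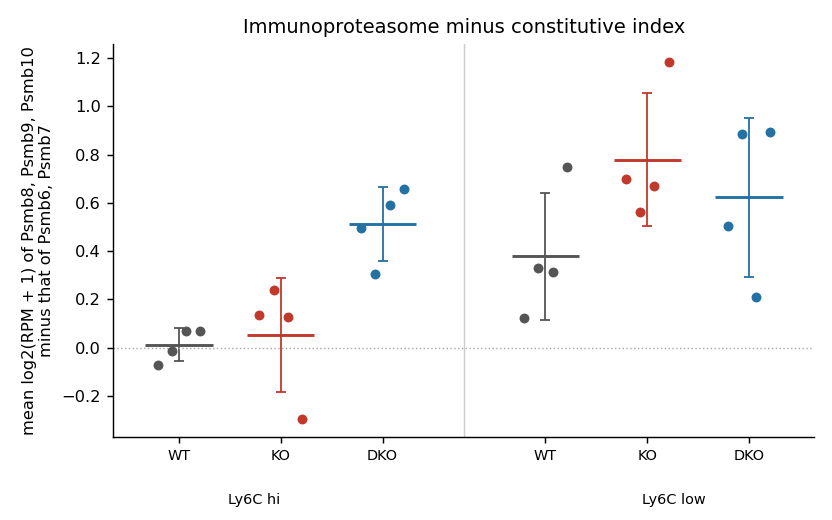
Immunoproteasome index, the mean log2(RPM + 1) of Psmb8, Psmb9 and Psmb10 minus that of Psmb6 and Psmb7, in each library by subset and genotype, with the mean and SD of 4. The Ly6C hi Slc29a3-/- Tlr7-/- libraries, from 0.30 to 0.66, sit above the other Ly6C hi libraries, the highest of which is at 0.24.

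In Ly6C low monocytes the same genes were not called in any comparison of genotypes. Psmb9 was at 57.8, 74.8, 60.9 and 75.8 RPM (WT), 73.5, 66.3, 73.5 and 116 RPM (Slc29a3-/-) and 62.9, 88.3, 72.8 and 213 RPM (Slc29a3-/- Tlr7-/-). The groups overlapped, and replicate 4 was the highest in each. Psmb8 was at 490.1, 576, 543 and 521 RPM (WT), 577, 563, 505 and 649 RPM (Slc29a3-/-) and 527, 541, 555 and 993 RPM (Slc29a3-/- Tlr7-/-). Psmb10 was at 87.6, 89.3, 93.2 and 178 RPM (WT), 131, 138, 140.2 and 179 RPM (Slc29a3-/-) and 123, 143, 125 and 170.4 RPM (Slc29a3-/- Tlr7-/-). Both overlapped between genotypes, with the highest Psmb8 in Slc29a3-/- Tlr7-/- replicate 4 and the Psmb10 of WT replicate 4 well above its 3 fellows. For Slc29a3-/- against Slc29a3-/- Tlr7-/- cells the log2 difference was -0.14 ± 0.19 (SE; adjusted P = 0.70) for Psmb8, -0.26 ± 0.31 (SE; adjusted P = 0.66) for Psmb9 and 0.07 ± 0.22 (SE; adjusted P = 0.88) for Psmb10. A subset-by-genotype interaction was then fitted to all 24 libraries. The Slc29a3-/- against Slc29a3-/- Tlr7-/- difference in Ly6C hi cells minus that in Ly6C low cells was -0.66 ± 0.30 (SE; adjusted P = 0.17) for Psmb10, -0.32 ± 0.23 (SE; adjusted P = 0.39) for Psmb8 and -0.19 ± 0.35 (SE; adjusted P = 0.78) for Psmb9. None passed, so the genotype differences of the 3 genes are not shown to differ between subsets.

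Across the whole family, Slc29a3-/- and WT Ly6C hi cells differed in 7 of 44 members, 6 higher and 1 lower, where 10.2% of all genes were called higher and 17.8% lower. The members' median was 0.05 and that of all genes -0.14. Of the 6 higher genes, 3 belong to the 19S cap, 2 to the alpha ring, and the last is Psmb9. Psmd14, the deubiquitinase of the 19S lid, was read at 44.5, 43.6, 51.7 and 50.2 RPM (WT), 64, 75.7, 76 and 70.0 RPM (Slc29a3-/-) and 50.4, 65.1, 49.4 and 65.7 RPM (Slc29a3-/- Tlr7-/-). WT and Slc29a3-/- did not overlap, and differed by 0.58 ± 0.14 (SE; adjusted P = 0.0069). Psmc2, an ATPase of the 19S base, stood at 47.1, 41.6, 49 and 59.2 RPM in WT against 67.5, 80.8, 84 and 75.3 RPM in Slc29a3-/- libraries, again without overlap (0.64 ± 0.13, adjusted P = 0.0035). Psmd13, a lid subunit (0.53 ± 0.17, adjusted P = 0.027), and the alpha subunits Psma1 (0.51 ± 0.17, adjusted P = 0.042) and Psma6 (0.47 ± 0.14, adjusted P = 0.019) were also called higher. Psmb4, a structural beta subunit, was lower, at 129.9 ± 13.6 RPM against 173 ± 18.2 RPM (SD, n = 4 each; -0.41 ± 0.13, adjusted P = 0.026).

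Psmc2 and Psmd14 kept their calls without any one library, with log2 differences of 0.56 to 0.73 and 0.54 to 0.63. The count of 7 fell to 3, 2 and 4 without WT replicates 1, 2 and 3, and to 4 and 3 without Slc29a3-/- replicates 2 and 3. After TMM scaling, which moved the median of all genes from -0.14 to -0.01, 8 members were higher and 0 lower, where 14.5% of all genes were called higher and 12.9% lower: Psmb4 was no longer called, and the ATPases Psmc1 (0.57) and Psmc6 (0.76) were added.

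**Figure D3:**
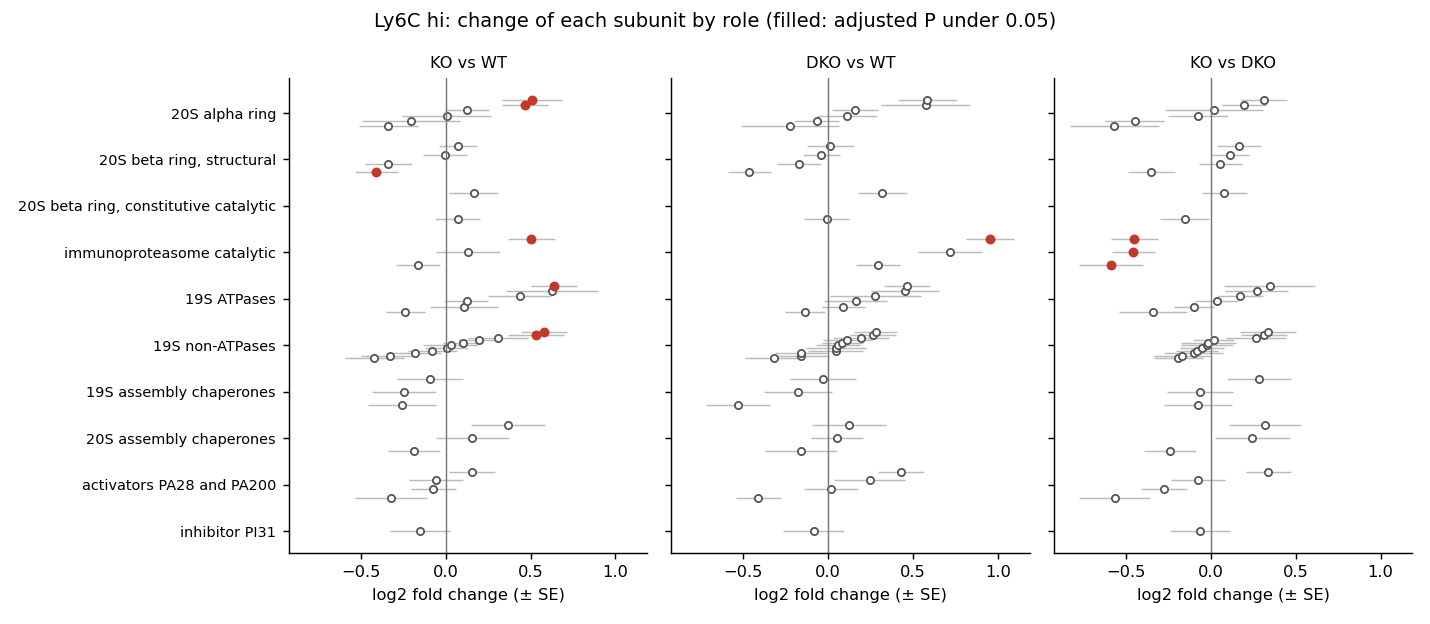
Log2 fold change of each proteasome gene tested in Ly6C hi cells, grouped by role, for the 3 comparisons of genotypes. Filled points passed limma's test, and the vertical line marks 0, not the median of all genes. The immunoproteasome genes are the 3 called in Slc29a3-/- against Slc29a3-/- Tlr7-/- cells, at -0.46, -0.45 and -0.59, with the other members spread on both sides of 0.

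Among the activators, Psme4 alone was called between genotypes at the deposited scaling. Psme1, the PA28 alpha subunit, was at 299.9 ± 65.2 RPM (WT), 287 ± 49.3 (Slc29a3-/-) and 299 ± 15.3 RPM (Slc29a3-/- Tlr7-/-) in Ly6C hi cells (SD, n = 4), and was not called between genotypes in either subset (adjusted P of 0.82, 0.96 and 0.78 in Ly6C hi cells, limma). Psme3, the nuclear PA28 gamma subunit, was at 256 ± 27.8 RPM (WT), 243 ± 23.1 (Slc29a3-/-) and 193 ± 26.6 RPM (Slc29a3-/- Tlr7-/-) in Ly6C hi cells, and at 233 ± 22.5 RPM (WT), 227 ± 18.9 (Slc29a3-/-) and 169 ± 38.5 RPM (Slc29a3-/- Tlr7-/-) in Ly6C low cells (SD, n = 4). The Slc29a3-/- Tlr7-/- libraries were below WT and Slc29a3-/- without overlap in both subsets, though no comparison passed the test at the deposited scaling (lowest adjusted P = 0.08, limma, Slc29a3-/- Tlr7-/- against WT, Ly6C low). Psme2b, a near copy of the PA28 beta gene, differed by -0.57 ± 0.21 (SE; adjusted P = 0.072) between Slc29a3-/- and Slc29a3-/- Tlr7-/- Ly6C hi cells. Its transcript shares 789 of 794 aligned bases (99.4%) with that of Psme2, so its reads may stem from either gene. In its order of means Psme2b ran as Psmb8 did, lowest in Slc29a3-/- cells, and its level in Ly6C hi cells was 409 ± 139.5 RPM (WT), 319 ± 63.7 (Slc29a3-/-) and 473 ± 89.1 RPM (Slc29a3-/- Tlr7-/-) (SD, n = 4). Psme4 (PA200) was called in 1 comparison of genotypes, higher in Slc29a3-/- Tlr7-/- than in WT Ly6C low cells at 93.8 ± 15.7 RPM against 65.1 ± 7.43 RPM (SD, n = 4 each).

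In Ly6C low cells few members were called. Between Slc29a3-/- Tlr7-/- and WT there were 3 of 42, 1 higher and 2 lower, against 2.5% and 6.37% of all genes: Psme4 (0.51 ± 0.15, adjusted P = 0.048), Psmb2, a structural beta subunit (-0.72 ± 0.13, adjusted P = 0.0092), and Psmd3, a lid subunit (-0.83 ± 0.24, adjusted P = 0.048). Psmb2 was at 176, 215, 185 and 213 RPM in WT and 137, 115, 118 and 107 RPM in Slc29a3-/- Tlr7-/- libraries, which did not overlap. Psmd3 was at 116, 133, 129.7 and 72.7 RPM and 76.2, 86.2, 54.1 and 39.2 RPM, with WT replicate 4 inside the Slc29a3-/- Tlr7-/- range. The count was 1 without any one of WT replicates 1, 2 or 3 or Slc29a3-/- Tlr7-/- replicates 3 or 4, 7 without WT replicate 4, and 6 without Slc29a3-/- Tlr7-/- replicate 1 or 2. Between Slc29a3-/- and WT, 0 of 42 were called by limma (2 at an unadjusted P under 0.05, and 3 without WT replicate 4), where 2.02% of all genes were called higher and 2.63% lower. Of all 10317 genes tested there, 2060 reached an unadjusted P under 0.05. Between Slc29a3-/- and Slc29a3-/- Tlr7-/-, 0 of 42 were called (9 at an unadjusted P under 0.05, 8 of them higher in Slc29a3-/-), against 1.22% and 0.708% of all genes, and 1 without Slc29a3-/- Tlr7-/- replicate 1 or 2. That unadjusted P was reached by 2020 of all 10317 genes, so 9 of 42 is near the share of all genes.

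Other marker lists moved with the Ly6C low genotypes. The immediate early genes summed to 12777 to 15650 RPM in WT replicates 1 to 3, against 2128 in WT replicate 4, 2498 to 3054 in Slc29a3-/- and 2643 to 8168 in Slc29a3-/- Tlr7-/- libraries, and 5 of 8 were called lower than WT in each mutant. The conventional dendritic cell genes summed to 192 to 209 RPM in WT replicates 1 to 3, 682 in WT replicate 4, 139.8 to 249.95 in Slc29a3-/- and 410.3 to 752 in Slc29a3-/- Tlr7-/- libraries. Of these 7 genes, 3 were called lower in Slc29a3-/- than in WT, 0 of 7 were called between Slc29a3-/- Tlr7-/- and WT by limma (1 at an unadjusted P under 0.05), and 5 were called lower when Slc29a3-/- was set against Slc29a3-/- Tlr7-/-. The neutrophil genes summed to 1073 to 2440 RPM in WT replicates 1 to 3 and to at most 196 RPM in every other Ly6C low library. The erythroid genes were at 34 to 39.6 RPM in Slc29a3-/- and at most 5.6 RPM in the other libraries. The part of these lists in the calls of Psmb2, Psmd3 and Psme4 was not tested.

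Between the subsets, Psmb8, Psmb9 and Psmb10 were not called in any genotype at the deposited scaling. At that scaling, the share of members called higher in Ly6C hi cells was below that of all genes in WT and Slc29a3-/-. In WT, 6 of 44 members were higher and 0 lower, against 19.1% and 10.5% of all genes: Psma7 (0.81 ± 0.19, adjusted P = 0.0019), the 20S assembly chaperone Psmg4 (0.70 ± 0.16, adjusted P = 0.0016), Psmc1 (0.56 ± 0.21, adjusted P = 0.047), Psmb1 (0.53), Psmd6 (0.40) and Psmb3 (0.30). With same-numbered WT libraries taken as pairs (replicate block), Psmc1 and Psmb3 were lost (adjusted P = 0.066 and 0.084, limma), and without Ly6C low replicate 3 the count was 3. TMM and RLE scaling each left 4 of the 6 calls, without Psmb3 (adjusted P = 0.15 and 0.14, limma). Of all genes, 17.6% and 17.5% were then called higher and 12.5% and 12.7% lower. In Slc29a3-/- cells 6 were higher and 1 lower, against 19.1% and 22.1% of all genes. They were Psmc1 (0.74), Psmd14 (0.62), Psmb7 (0.46), Psmd6 (0.42), Psmb2 (0.40) and Psma2 (0.35), with Psme2b lower (-0.68). After TMM and RLE scaling 12 and 13 members were called there, all 7 of these among them. Of all genes, 22.4% were then called higher and 19.1% lower at either scaling. In Slc29a3-/- Tlr7-/- cells 14 were higher and 0 lower, against 21.4% and 11.8%. The median of the members was 0.10, 0.17 and 0.27 in the 3 genotypes, beside 0.07, -0.10 and 0.12 for all genes.

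Psmd6, a lid subunit, was called in all 3 genotypes. It stood at 101, 96.6, 97.7 and 108 RPM in WT Ly6C hi and 70.7, 73.1, 69.8 and 91.6 RPM in WT Ly6C low libraries, and its log2 difference was 0.40 ± 0.13 in WT, 0.42 ± 0.13 in Slc29a3-/- and 0.75 ± 0.13 in Slc29a3-/- Tlr7-/- cells (SE). The subsets did not overlap in any genotype. For the immunoproteasome genes the difference between subsets ranged from -0.39 (Psmb10 in Slc29a3-/- cells, adjusted P = 0.14, limma) to 0.27 (Psmb10 in Slc29a3-/- Tlr7-/- cells, adjusted P = 0.35). Psmb7 was called higher in Slc29a3-/- Ly6C hi cells alone; the interaction was 0.34 ± 0.20 (SE; adjusted P = 0.33) against WT, so this is not shown to differ by genotype.

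**Figure D4:**
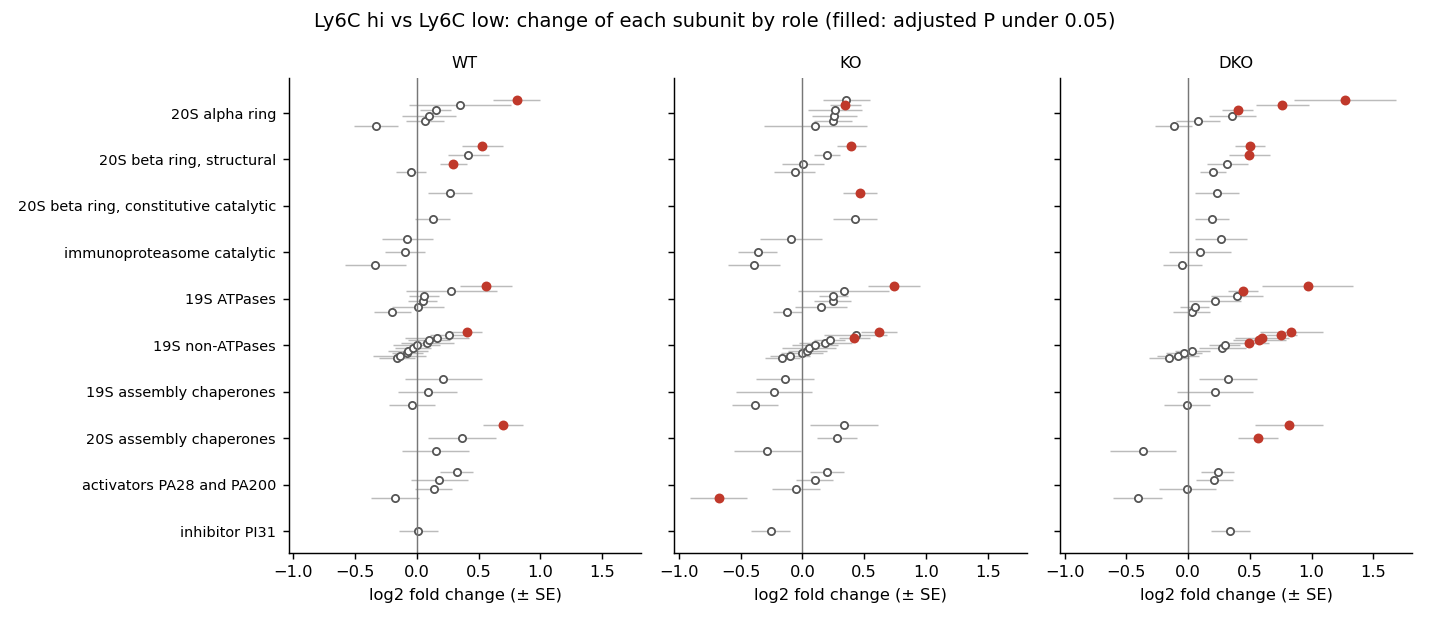
Log2 fold change between Ly6C hi and Ly6C low cells of each proteasome gene, grouped by role, in each genotype. Filled points passed limma's test, and the vertical line marks 0, not the median of all genes. Most called members lie above 0, the exception being Psme2b in Slc29a3-/- cells at -0.68.

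Psmd14 was the only member whose genotype effect differed between subsets at the deposited scaling. In Ly6C low cells it was at 48.9 ± 6.83 RPM (WT), 46.1 ± 2.96 (Slc29a3-/-) and 59.3 ± 12.2 RPM (Slc29a3-/- Tlr7-/-) (SD, n = 4), so the Slc29a3-/- excess seen in Ly6C hi cells was not seen there. The interaction was 0.65 ± 0.21 (SE; adjusted P = 0.047) for Slc29a3-/- against WT and 0.65 ± 0.21 (SE; adjusted P = 0.047) for Slc29a3-/- against Slc29a3-/- Tlr7-/-, which share the Slc29a3-/- libraries. Of all genes, 4.13% and 4.54% were called in this direction and 4.72% and 4.44% in the other. The call against WT was lost without any one of 14 of the 16 libraries (adjusted P up to 0.099, limma), though the log2 value stayed between 0.60 and 0.74, and that against Slc29a3-/- Tlr7-/- without any one of 11 (adjusted P up to 0.11, limma; 0.52 to 0.73). After TMM scaling both calls held, at 0.82 and 0.85, and Psmb2 was added against WT (0.61). Both calls were lost without the filter on low values (adjusted P = 0.053 and 0.056, limma), with a pseudocount of 0.1 (0.055 and 0.056) and with the replicate block (0.05004 and 0.052), at log2 values of 0.65 to 0.66.

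The Slc29a3-/- Tlr7-/- libraries varied more among themselves than the others. The median SD of the 44 members within a group was 0.12, 0.18 and 0.23 on the log2 scale in WT, Slc29a3-/- and Slc29a3-/- Tlr7-/- Ly6C hi libraries and 0.25, 0.11 and 0.35 in the Ly6C low ones. Over all 11042 genes it was 0.20, 0.27 and 0.32, then 0.28, 0.17 and 0.39, so the members followed the spread of all genes at a lower level. In Slc29a3-/- Tlr7-/- Ly6C low libraries 12 members had an SD above 0.5, against 2 in WT and 0 in Slc29a3-/- Ly6C low libraries. Psma4, an alpha subunit, had the largest SD (1.33), at 90.1, 83.9, 31.8 and 12 RPM. The ATPase Psmc6, at 32, 29.4, 11.2 and 6.31 RPM, and the lid subunit Psmd13, at 55.1, 62, 41.2 and 18.5 RPM, were lowest in the same replicate 4, in which Psma7 was highest (338, 305, 388 and 539 RPM). That library was the lowest of its group for 21 of 44 members and the highest for 18. This is not particular to it: WT replicate 4 was lowest for 6 and highest for 29 in Ly6C low cells. In Ly6C hi cells WT replicate 4 was lowest for 11 and highest for 22. Among the Slc29a3-/- Tlr7-/- Ly6C hi libraries, replicate 2 had the lowest Psma4 (139, 47.6, 165 and 98.4 RPM) and Psmc6 (33.4, 17, 40.6 and 50.0 RPM) and the highest Psma7 (377, 656, 442 and 532 RPM). The genes of this paragraph were singled out after their values were seen. The cause of the spread was not tested.

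**Figure D5:**
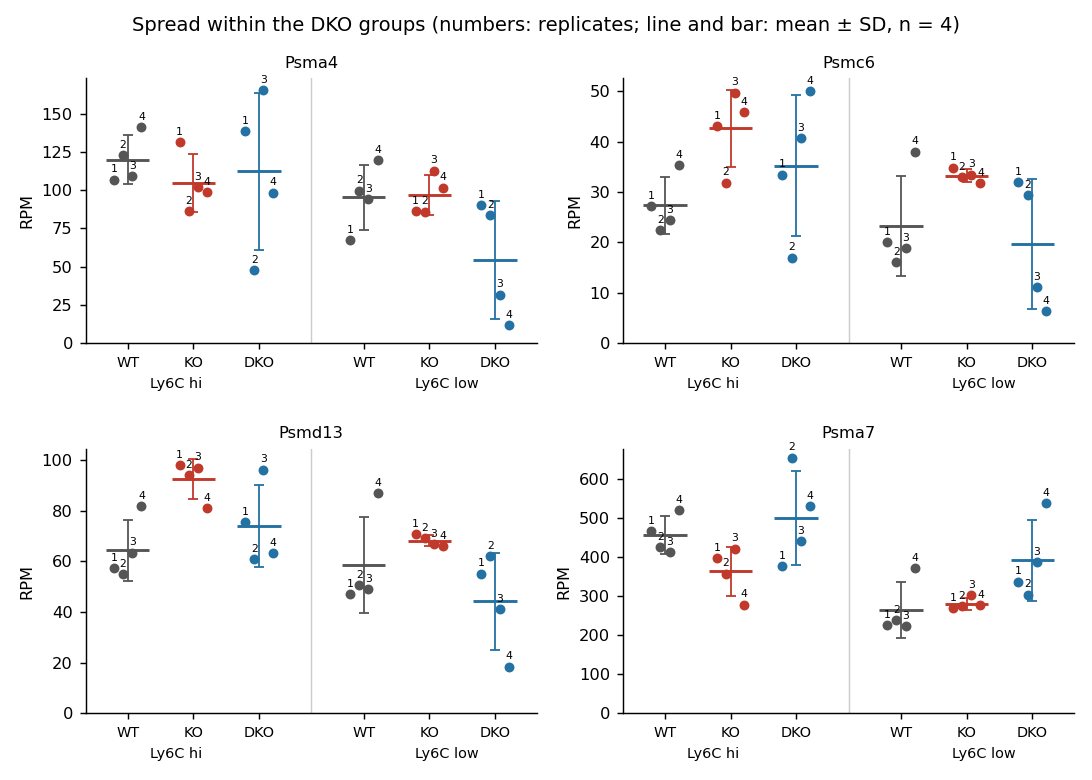
Level (RPM) of Psma4, Psmc6, Psmd13 and Psma7 in each library, by group. In Slc29a3-/- Tlr7-/- libraries Psma4 runs from 12 to 90.1 RPM in Ly6C low and from 47.6 to 165 RPM in Ly6C hi cells, while Psma7 is highest where Psma4 is lowest.

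This spread bears on the Slc29a3-/- Tlr7-/- subset comparison. The largest differences there were those of Psma4 (1.27 ± 0.42), Psmc6 (0.97 ± 0.37), Psmd13 (0.84 ± 0.26) and Psmg1 (0.82 ± 0.27; SE), each with subsets that overlapped. The 14 calls became 9 without Slc29a3-/- Tlr7-/- Ly6C hi replicate 1 and 5 without replicate 3. Without Ly6C hi replicate 2 there were 15, all 14 among them. Without Ly6C low replicate 4 there were 10, of which 6 were among the 14. The call of Psma8 (0.76) belongs to a gene near the filter of 1 RPM, at 0.77, 2.36, 1.5 and 2.17 RPM in its Slc29a3-/- Tlr7-/- Ly6C hi libraries. These libraries helped it pass the filter, so its difference was partly built in.

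The genes that work with the proteasome were taken from 4 lists. Among 10 regulators of proteasome genes, Irf1 and Nlrc5, transcription factors of the interferon response and of MHC class I genes, were the 2 called lower in Slc29a3-/- than in Slc29a3-/- Tlr7-/- Ly6C hi cells, and 0 were higher. Irf1 was at 408 ± 32 RPM (WT), 247 ± 65.5 (Slc29a3-/-) and 415 ± 114 RPM (Slc29a3-/- Tlr7-/-) and Nlrc5 at 85.4 ± 4.47 RPM (WT), 65.8 ± 11.4 (Slc29a3-/-) and 103 ± 21.2 RPM (Slc29a3-/- Tlr7-/-) (SD, n = 4), and Slc29a3-/- differed from Slc29a3-/- Tlr7-/- by -0.75 ± 0.19 (SE; adjusted P = 0.015) and -0.63 ± 0.16 (SE; adjusted P = 0.014). Against WT, 1 regulator was higher in Slc29a3-/- Ly6C hi cells, the oxidative stress factor Nfe2l2 (0.84), and 4 were lower, led by Maff (-3.38) and Mafk (-1.38), with Irf1 at -0.75. The immediate early genes moved with that comparison (8 of 8 lower in Slc29a3-/-). Their summed level was 13551 to 13869 RPM in WT replicates 1 to 3, but 1125 RPM in WT replicate 4, 467 to 1017 RPM in Slc29a3-/- and 1295 to 3488 RPM in Slc29a3-/- Tlr7-/- libraries, so WT replicates 1 to 3 also stood above Slc29a3-/- Tlr7-/- in the comparison that called Psmb9. Their part in either comparison was not tested. Nfe2l1, the factor of the proteasome recovery response, was not called between genotypes (0.25, 0.44 and -0.20 in Ly6C hi cells, adjusted P = 0.16, 0.072 and 0.28, limma). It was lower in Ly6C hi than in Ly6C low cells of WT (-0.45) and Slc29a3-/- (-0.66).

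Of 10 interferon-stimulated genes, 1 was higher and 5 lower in Slc29a3-/- than in Slc29a3-/- Tlr7-/- Ly6C hi cells. The lower ones were led by Gbp3, a guanylate-binding protein (-0.98), and the antiviral GTPase Mx1 (-0.92), and Ifit2 was higher (0.78). Against WT, Slc29a3-/- Tlr7-/- Ly6C hi cells had 2 of the 10 higher (Ifit1 0.82, Gbp3 0.78) and Slc29a3-/- cells 1 (Ifit2 1.09). The summed level was 830 to 900 RPM in WT, 532 to 873 in Slc29a3-/- and 1069 to 1384 in Slc29a3-/- Tlr7-/- Ly6C hi libraries, so the Slc29a3-/- Tlr7-/- libraries were highest, as for Psmb9. In every genotype this list was higher in Ly6C hi than in Ly6C low cells (9, 8 and 9 of 10 called in WT, Slc29a3-/- and Slc29a3-/- Tlr7-/-), unlike Psmb8, Psmb9 and Psmb10. In Ly6C low cells 1 gene was higher against WT in Slc29a3-/- (Rsad2, 1.42) and 1 in Slc29a3-/- Tlr7-/- cells (Ifit2, 1.33).

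Of 12 genes of MHC class I presentation, 0 were called between Slc29a3-/- and Slc29a3-/- Tlr7-/- Ly6C hi cells by limma (2 at an unadjusted P under 0.05). Tap1 and Tap2, the peptide transporter encoded beside Psmb8 and Psmb9, differed by -0.24 and -0.03 (adjusted P = 0.40 and 0.91, limma), and B2m, the class I light chain, by -0.42 (adjusted P = 0.07, limma). Against WT, Tapbp was lower in Slc29a3-/- Ly6C hi cells (-0.46), and 0 were called in Slc29a3-/- Tlr7-/- cells (6 at an unadjusted P under 0.05, limma). Of all 10561 genes, 2434 reached that unadjusted P between Slc29a3-/- Tlr7-/- and WT, and 3595 between Slc29a3-/- and Slc29a3-/- Tlr7-/-. In the Ly6C low cells 0 were called between genotypes by limma. At an unadjusted P under 0.05 there were 0, 5 and 2 for Slc29a3-/- against WT, Slc29a3-/- Tlr7-/- against WT and Slc29a3-/- against Slc29a3-/- Tlr7-/-. In the same order, 2060, 3047 and 2020 of all 10317 genes reached that unadjusted P. Between the subsets, 2, 6 and 5 of the 12 were lower in Ly6C hi cells of WT, Slc29a3-/- and Slc29a3-/- Tlr7-/-, among them B2m (-0.77, -0.90 and -1.06) and H2-K1 (-0.89, -1.46 and -1.44).

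Among 9 proteasome partners, the 19S-bound deubiquitinase Uchl5 was higher in Slc29a3-/- Ly6C hi cells, by 1.08 against WT and 1.03 against Slc29a3-/- Tlr7-/-. Against WT 2 were higher, the other being Shfm1 (0.57), and 1 lower, the stress-inducible Zfand5 (-1.48). Against Slc29a3-/- Tlr7-/- cells 2 were higher, Uchl5 and the shuttle factor Ubqln1 (0.58). Zfand5 was also lower than WT in Ly6C low Slc29a3-/- (-0.95) and Slc29a3-/- Tlr7-/- cells (-0.84), where no other partner was called.

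Markers of other cell types and of division moved with the Ly6C hi genotypes. All 8 proliferation genes tested were higher in Slc29a3-/- cells than in either other genotype, with a summed level of 463 to 732 RPM over WT, 1284 to 2257 over Slc29a3-/- and 348 to 621 over Slc29a3-/- Tlr7-/- libraries. Of 11 neutrophil genes 8 were higher and 2 lower against WT, and 9 higher and 1 lower against Slc29a3-/- Tlr7-/- (summed 23859 to 32792, 73616 to 135826 and 13364 to 39539 RPM over the WT, Slc29a3-/- and Slc29a3-/- Tlr7-/- libraries). All 7 conventional dendritic cell genes were called lower when Slc29a3-/- was set against Slc29a3-/- Tlr7-/- (summed 219 to 410 against 598 to 836 RPM, and 332 to 563 in WT), as were 3 of 4 plasmacytoid dendritic cell genes (87.9 to 165 against 219 to 299 RPM, and 204 to 302 in WT). The T and NK cell genes summed to 240.4 to 268 RPM in WT replicates 1 to 3, 49.8 in WT replicate 4 and 6.18 to 20.1 in Slc29a3-/- libraries, with 5 of 5 called lower than WT. The Slc29a3-/- Tlr7-/- libraries differed among themselves: replicate 1 had 271 RPM of T and NK cell genes and the others 3.74 to 22.2, replicates 1 and 4 had 35547 and 39539 RPM of neutrophil genes and replicates 2 and 3 13370 and 13364, and replicate 4 had 1170 RPM of red pulp macrophage genes and the others 380.5 to 535. Slc29a3-/- replicate 4, without which 0 members were called against Slc29a3-/- Tlr7-/-, had 135826 RPM of neutrophil and 219 RPM of conventional dendritic cell genes. The other Slc29a3-/- libraries had 73616 to 85789 and 331 to 410 RPM. No gene of the proliferation, neutrophil and dendritic cell lists was under 1 RPM in all libraries. Their part in the differences of Psmb8, Psmb9, Psmb10, Psmd14 and Psmc2 was not tested.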

How the data were processed

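RNA from sorted monocytes was amplified with the Ion AmpliSeq Transcriptome Mouse panel and read on an Ion Proton. The authors deposited 1 table of reads per 1000000 (RPM) for each amplicon and library, and the sources used here do not say which of their pipelines (the AmpliSeqRNA plug-in, or Cutadapt, STAR on mm10, HTSeq and DESeq2) wrote it. Values of 0.0001, which stand for 0 reads, were replaced by 0, and 27 symbols that a spreadsheet had turned into dates were repaired. All 24 columns matched a labelled sample.

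Genes with at least 1 RPM in 4 libraries were tested by limma 3.58.1 (R 4.3.3, trended variance, not paired) on log2(RPM + 1), with the 12 libraries of a subset for genotypes and all 24 for subsets and interactions, and Benjamini-Hochberg adjustment over all genes. The fits were tested on simulated data. Alternatives were TMM and RLE scaling, no filter, a pseudocount of 0.1, a replicate block, WT replicate 4 as the sole WT library, and leaving out each library. Same-numbered WT libraries deviated together between subsets (r of 0.26 to 0.62 in 4 of 4 pairs), but only 2 of 4 matched their own number best. Replicate 4, which stood apart in both subsets, had the highest r. These values do not show that the numbers mark pairs. The blocked value is given beside that comparison.

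Members and gene lists were chosen with earlier results of these data known. Named in every comparison were the paired catalytic and PA28 genes, the 4 called members with the largest change, Tap1, Tap2, B2m, Nlrc5, Irf1, Nfe2l1, Nfe2l2, and the 2 most changed called genes of each pathway list. Other names were chosen after their values were seen. Read depth limits a value to counting error only in part, and amplified reads are not independent molecules. Sequences came from RefSeq (GRCm38.p6), and the search for a further motif is not reported here.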

Additional observations from a re-analysis of the deposited data

Results flagged for a closer look

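A library far from the other 3 of its group, by a gap that takes up most of the range of the group (Dixon's 95% critical value), was found in 5 of the 54 groups of 4 values examined, where chance gives about 1 in 20. In Slc29a3-/- Tlr7-/- Ly6C low cells, replicate 4 had 993.0 RPM of Psmb8 (the next was 555) and 213 RPM of Psmb9 (the next was 88.3). In Slc29a3-/- Ly6C low cells, replicate 4 had 116 RPM of Psmb9 (the next was 73.5). In WT Ly6C low cells, replicate 4 had 178 RPM of Psmb10 (the next was 93.2). In WT Ly6C hi cells, replicate 4 had 617 RPM of Psme2b (the next was 357). Of these 5, 2 were from the WT replicate that stands apart in both subsets.

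Psmd14 was noted because its genotype effect differed between the subsets by the interaction test: the Ly6C hi difference exceeded the Ly6C low difference by 0.65 for Slc29a3-/- against WT (0.6541) and 0.65 for Slc29a3-/- against Slc29a3-/- Tlr7-/- (0.6527), both on the log2 scale. What lies behind these values was not tested.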

How the results depend on the processing

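A count test was not run, because the table gives RPM with 0 reads replaced by a small constant. In the counts below K is Slc29a3-/- and D is Slc29a3-/- Tlr7-/-. Called members under TMM and RLE scaling were 2 and 2 for D against WT in Ly6C hi cells (main 1), 12 and 13 for the subsets in K (7), 9 under RLE for the subsets in D (14), and 2 and 2 for the K against WT interaction (1). For K against D in Ly6C hi cells the count was 2 against 3 with 0 genes shared. Without the filter the counts were 1 for D against WT (3) and 1 for K against D (0) in Ly6C low cells, 9 for the subsets in D, and 0 for both interactions. With a pseudocount of 0.1 they were 1 for D against WT in Ly6C low cells and 0 for both interactions. With the replicate block they were 1 for K against D in Ly6C hi cells (Psmb8; adjusted P = 0.051 and 0.055 for Psmb9 and Psmb10, limma) and 0 for the K against D interaction. The block's 1 call for the K against WT interaction was Psme2b. Outside the WT subsets, r of same-numbered libraries ran from -0.46 to 0.34 between subsets and from -0.19 to 0.16 between genotypes. Pairing by number was not shown for any group. With WT replicate 4 alone, all 5 comparisons with WT or its subsets gave 0 calls, as did the K against WT interaction, and the index differed by 0.032 and -0.12 for K and D against WT in Ly6C low cells and by -0.68 between WT subsets.

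Leaving out 1 library gave 2 to 8 calls for K against WT, 0 to 6 for D against WT and 0 to 4 for K against D in Ly6C hi cells, and 0 to 3, 1 to 7 and 0 to 1 in Ly6C low cells. It gave 3 to 8, 5 to 7 and 5 to 15 for the subsets in WT, K and D, and 0 to 1 and 0 to 2 for the interactions. The index difference ranged from -0.02 to 0.15, 0.45 to 0.57 and -0.53 to -0.34 in Ly6C hi cells, 0.26 to 0.52, 0.15 to 0.38 and 0.02 to 0.25 in Ly6C low cells, and -0.45 to -0.24, -0.80 to -0.59 and -0.25 to -0.02 between subsets.

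Reversed values were all of uncalled genes. With WT replicate 4 alone, Psmb10 gave -0.015 (K against WT, Ly6C hi), -0.29 and -0.36 (K and D against WT, Ly6C low) and 0.27 (K against WT interaction). Psmb10 gave -0.0029 under RLE for K against D in Ly6C low cells. Psmb9 gave 0.0076 and 0.0066 under TMM and RLE between subsets in K, -0.0011 and -0.013 in D, and 0.0088 and 0.019 for the K against D interaction. Without 1 library, K against D in Ly6C low cells ranged from -0.23 to 0.079 (Psmb8), -0.46 to 0.12 (Psmb9) and -0.028 to 0.17 (Psmb10). Between subsets Psmb10 ranged from -0.17 to 0.17 in WT, Psmb9 from -0.18 to 0.082 in K and -0.11 to 0.47 in D, and Psmb8 from -0.13 to 0.17 in D. Psmb9 ranged from -0.57 to 0.014 for the K against D interaction. The cause of these changes was not tested beyond what each setting changes itself.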
